A study of Mus musculus with 69 samples.

Results

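The genes described here write, maintain, erase and read methylation of cytosine in DNA. The 9 members were chosen by name: the DNA methyltransferases Dnmt1, Dnmt3a and Dnmt3b, the maintenance factor Uhrf1, the 5-methylcytosine oxidases Tet1, Tet2 and Tet3, and the methyl-CpG binding proteins Mbd1 and Mbd2. Their rows were taken from a table of 52636 mouse gene IDs, of which 14016 passed a filter on low counts, and all 9 passed it. Their peaks of dimethylated lysine 79 of histone H3 (H3K79me2) were taken by gene name from both deposited peak lists.

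RNA came from the nucleus accumbens of male mice in 4 groups of 8 libraries. Standard GFP and ELS GFP were reared under standard conditions or with early life stress (ELS) and carried GFP as the control. Standard Dot1l overexpression and ELS Dot1l knockdown were labelled with a change of Dot1l, the methyltransferase that lays down H3K79me2. The series title and design concern D2-type medium spiny neurons, whereas the protocol names whole tissue for RNA, and no source used here gives the vector, strain, age or number of animals per library. The peak lists hold 1 list per rearing group, for which 9 Standard and 9 ELS chromatin immunoprecipitation libraries are labelled, with no GFP or Dot1l label.

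As background, DNMT3A and DNMT3B methylate DNA de novo, and DNMT1 copies methylation onto the new strand after replication, guided by UHRF1, which binds hemimethylated CpG. TET enzymes oxidise 5-methylcytosine to 5-hydroxymethylcytosine and further, a step towards active demethylation, and both modified bases are abundant in neurons. MBD1 and MBD2 bind methylated CpG and recruit corepressors, MBD2 as part of the NuRD complex. H3K79me2 typically covers the first part of transcribed genes.

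In RefSeq (GRCm38.p6), Tet2 spans chr3:133463677-133545136, Tet3 chr6:83362373-83457208, Tet1 chr10:62804570-62887469, Dnmt1 chr9:20907206-20959888, Dnmt3a chr12:3801559-3914443, Dnmt3b chr2:153649411-153687730 and Uhrf1 chr17:56303337-56323486. RefSeq promoter windows (GRCm38.p6, the same assembly as mm10) were matched for 7 of the 9 members, leaving out Mbd1 and Mbd2. Each window runs from 250 bases before to 50 bases after a start site. The 3 windows below are shown because H3K79me2 peaks lay at or just downstream of them. They are written 5′ to 3′ on the gene's strand, with every CG dinucleotide in capitals.
Tet2 (chr3:133544341-133544640, minus strand): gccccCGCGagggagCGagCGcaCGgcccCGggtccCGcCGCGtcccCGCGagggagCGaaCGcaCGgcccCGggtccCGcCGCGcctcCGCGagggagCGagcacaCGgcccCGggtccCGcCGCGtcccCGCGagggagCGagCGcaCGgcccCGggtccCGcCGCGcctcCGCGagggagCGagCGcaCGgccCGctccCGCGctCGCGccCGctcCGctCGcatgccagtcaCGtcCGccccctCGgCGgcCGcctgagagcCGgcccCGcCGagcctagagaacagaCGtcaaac
Dnmt1 (chr9:20952574-20952873, minus strand): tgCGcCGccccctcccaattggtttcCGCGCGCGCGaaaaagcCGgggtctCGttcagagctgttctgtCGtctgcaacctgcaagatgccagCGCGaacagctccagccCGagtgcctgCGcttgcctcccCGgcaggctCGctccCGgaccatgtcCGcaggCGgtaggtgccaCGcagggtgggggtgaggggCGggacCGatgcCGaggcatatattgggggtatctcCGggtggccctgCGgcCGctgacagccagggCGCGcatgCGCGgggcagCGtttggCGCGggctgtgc
Dnmt3a (chr12:3806730-3807029, plus strand): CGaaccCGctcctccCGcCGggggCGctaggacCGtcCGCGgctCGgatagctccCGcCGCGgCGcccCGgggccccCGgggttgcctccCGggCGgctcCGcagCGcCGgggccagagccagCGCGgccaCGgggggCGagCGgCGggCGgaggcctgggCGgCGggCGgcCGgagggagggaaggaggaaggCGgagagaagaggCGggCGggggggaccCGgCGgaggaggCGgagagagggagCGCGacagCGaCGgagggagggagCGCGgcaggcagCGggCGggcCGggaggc
The Tet2 window held 57 CG dinucleotides, a number reached by 0.152% of 32851 mouse promoter windows, whose median was 7. The Dnmt3a window held 46, reached by 1.65% of windows, and the Dnmt1 window 33, reached by 8.56%. The windows of Tet3 and Tet1 held 22 and 17, reached by 23.1% and 31.4%. The Tet3 window, chr6:83441629-83441928 on the minus strand, lies inside the gene's span, which ends at 83457208. It marks an internal start site, and no window at the outer start of Tet3 was matched. At Dnmt3b and Uhrf1, where no H3K79me2 peak lay, the Dnmt3b window held 30, reached by 11.7%. The Uhrf1 windows held 12 and 33, reached by 39.6% and 8.56%. Further windows held 2 and 12 at Dnmt1, and 47 and 18 at Dnmt3a. The GC box GGGCGG, searched on both strands, occurred 6 times in the Dnmt3a window, 2 times in that of Dnmt1 and 1 time in that of Tet2, and 35.7% of all windows held it at least 1 time.

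Library totals ran from 0.314 to 9.8 M (mega) counts in Standard GFP, 1.76 to 11.1 in ELS GFP, 2.48 to 7.88 in Standard Dot1l overexpression and 0.462 to 8.8 in ELS Dot1l knockdown. Replicates 1, 4 and 5 of Standard GFP and replicate 7 of ELS Dot1l knockdown held under 1 M counts. Replicate numbers only name libraries. Markers of medium spiny neurons were present in every library, at a summed 344 to 2133 counts per 1 M counts (CPM). Dot1l itself averaged 33.9 ± 10.8 CPM in Standard GFP and 43.1 ± 19 in the libraries labelled overexpression (SD, n = 8 each; edgeR quasi-likelihood test, adjusted p = 0.741). It averaged 35.6 ± 11.4 CPM in ELS GFP and 43.1 ± 15.2 in the libraries labelled knockdown (SD, n = 8 each; edgeR adjusted p = 0.985), so the targeted gene was not lower under the knockdown label, and directions below are given by label.

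Among the erasers, Tet2 was the 1 member of 9 whose RNA level differed among the 4 groups past the threshold, with Standard GFP the highest group by mean and by median. The joint test of the 3 contrasts gave an adjusted p of 0.0278 for Tet2 (edgeR quasi-likelihood F test, Benjamini-Hochberg over 14016 genes), a threshold passed by 1.27% of genes tested, with 12.4% at an unadjusted p under 0.05. The other 8 members had adjusted p from 0.634 to 0.998. In Standard GFP Tet2 ran from 58.4 to 219 CPM with a median of 74, in ELS GFP from 32.9 to 67.2 with a median of 52.9, in Standard Dot1l overexpression from 42.5 to 83.9 with a median of 59.9 and in ELS Dot1l knockdown from 42.5 to 69.1 with a median of 58.1. All 8 ELS GFP libraries lay below the Standard GFP median, which held for 2.4% of genes tested, and 5 of them lay below the lowest Standard GFP library.

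The mean of Tet2 was 112 ± 64.4 CPM in Standard GFP against 53.8 ± 11 in ELS GFP (SD, n = 8 each), a log2 fold change of -1.04 (SE 0.24, 95% interval -1.53 to -0.56, edgeR adjusted p = 0.12). It was 60.7 ± 12.8 CPM with Dot1l overexpression, a log2 fold change against Standard GFP of -0.87 (SE 0.24, edgeR adjusted p = 0.145). Neither contrast passed the threshold, and 0% of the genes tested passed it in the ELS contrast or in either Dot1l contrast by edgeR, where DESeq2 called 88 genes for ELS (0.798%), 42 for overexpression (0.339%) and 2 for knockdown (0.0143%). At an unadjusted p under 0.05, 11.7% of genes passed in the ELS contrast, 10.9% in the overexpression contrast and 6.18% in the knockdown contrast. ELS Dot1l knockdown averaged 56 ± 8.87 CPM against ELS GFP, a log2 fold change of 0.07 (SE 0.24, 95% interval -0.41 to 0.54, edgeR adjusted p = 0.998). The 3 groups other than Standard GFP overlapped throughout, and both contrasts against Standard GFP share its libraries.

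Of the 8 Standard GFP libraries, 3 stood far above the other 5 in Tet2. They were replicates 1, 4 and 5 at 219, 184 and 159 CPM, from 219, 89 and 90 counts, and these are the 3 libraries of that group with under 1 M counts. The other 5 ranged from 58.4 to 81.2 CPM. These 3 libraries all lay above the other 5 in 1.48% of genes tested. The fourth library of that depth, ELS Dot1l knockdown replicate 7, held the lowest Tet2 level of its own group, 42.5 CPM. Without the 4 libraries the Tet2 log2 fold change was -0.32 for ELS (edgeR adjusted p = 0.615) and -0.15 for Dot1l overexpression, and the joint test gave an adjusted p of 0.834. The mean was then 67.6 ± 8.34 CPM in Standard GFP (SD, n = 5) and 53.8 ± 11 in ELS GFP (SD, n = 8). The Standard GFP median was then 66.3 CPM, and the highest ELS GFP library, at 67.2, lay above it. Leaving out 1 library also ended the joint call, at an adjusted p of 0.112 without Standard GFP replicate 1, 0.0631 without replicate 4 and 0.0581 without replicate 5. The joint call was also lost with limma voom quality weights (adjusted p = 0.549) and with the number in the library title as a block (adjusted p = 0.881). By DESeq2 it held (adjusted p = 0.00364), as for 1.34% of genes, and the ELS contrast for Tet2 passed as well, at a log2 fold change of -1.08 (adjusted p = 0.0162).

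**Figure D1:**
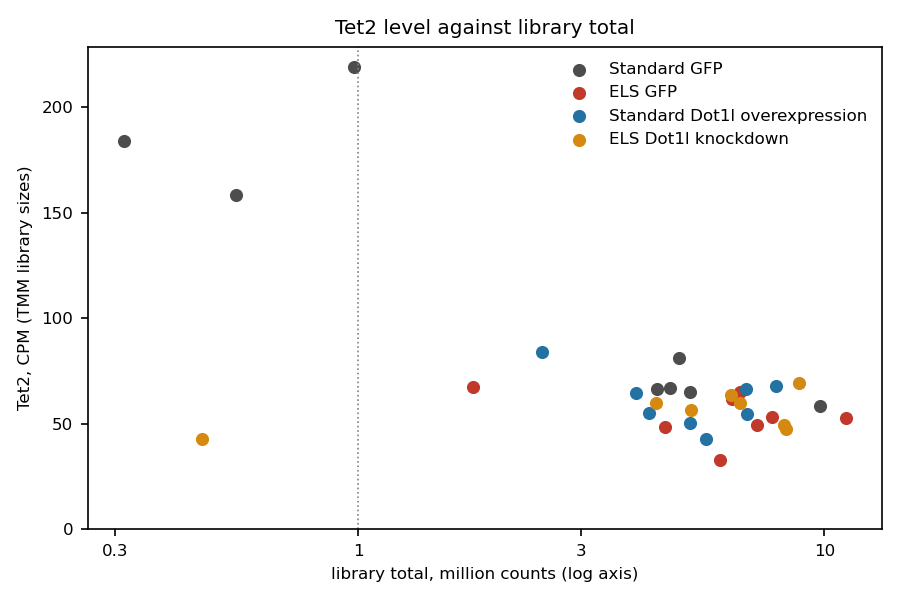
Tet2 level in CPM (vertical axis) against library total in M counts (horizontal axis, log scale) for the 32 RNA libraries, coloured by group. Of the 4 libraries left of the dotted line at 1 M counts, the 3 of Standard GFP lie between 159 and 219 CPM and the 1 of ELS Dot1l knockdown lies at 42.5 CPM.

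Most markers of the tissue's cell types lay below 0 in the same contrast. Of 10 medium spiny neuron markers tested, 9 were below 0 in ELS GFP against Standard GFP, at a median log2 fold change of -0.89, and their summed level ran from 419 to 2120 CPM in Standard GFP and from 436 to 1471 in ELS GFP, with at most 1 of the 10 at 0 in a library. Of 9 astrocyte markers tested, 9 were below 0 at a median of -0.65, with summed levels of 1747 to 3269 and 1124 to 2603 CPM. Of 10 oligodendrocyte markers 9 were below 0 at a median of -0.52 (567 to 1035 and 402 to 1085 CPM), and of 8 microglia markers tested 7 were below 0 at a median of -0.66 (395 to 2801 and 593 to 1224 CPM). In this contrast 0 of these markers passed the adjusted threshold by edgeR or DESeq2, with 5, 4, 2 and 2 at an unadjusted p under 0.05 by edgeR, beside 11.7% of all genes. The median over all genes was -0.01. Without the libraries under 1 M counts the 4 medians were -1.16, -0.50, -0.56 and -0.70, and with limma voom quality weights -1.0, -0.37, -0.63 and -0.06. In the overexpression contrast the medians were -0.51 for medium spiny neuron, -0.01 for astrocyte, -0.42 for oligodendrocyte and -0.29 for microglia markers. With limma voom they were -1.10, -0.06, -0.54 and 0.32, so microglia markers changed sign there, as astrocyte markers did without the libraries under 1 M counts (0.04). Their part in the Tet2 values was not tested. In whole tissue, fewer cells of a type and less RNA per cell cannot be told apart.

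Tet1 and Tet3, the other oxidases, did not differ past the threshold in any contrast. Tet1 had medians of 17 CPM in Standard GFP, 12.8 in ELS GFP, 16 with overexpression and 14.2 under the knockdown label, and the groups overlapped within a range of 6.9 to 33.3 CPM. For ELS against Standard GFP, 7 of 8 Tet1 values lay below the control median (log2 fold change -0.23, SE 0.26, edgeR adjusted p = 0.804). Tet3 had medians of 67.6, 66.8, 72.8 and 77.9 CPM in the same order of groups. A single library stood far above the rest in 3 of the 4 Tet3 groups: 228 CPM in Standard GFP replicate 6, 206 in overexpression replicate 1 and 301 in knockdown replicate 7, where the next highest were 77.9, 83.8 and 94.6. Standard GFP replicate 6 and overexpression replicate 1 had the lowest TMM scaling factors of the 32 libraries, 0.565 and 0.53. A low factor raises every CPM of a library, and its part in these values was not tested. Before scaling, overexpression replicate 1 held 738 Tet3 counts of 6.8 M, and replicate 4 held 737 of 7.88 M. The largest Tet3 log2 fold change was 0.49 for knockdown against ELS GFP (SE 0.36, edgeR adjusted p = 0.968). It rested on knockdown replicate 7, which holds under 1 M counts: without the libraries of that depth it was 0.05.

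**Figure D2:**
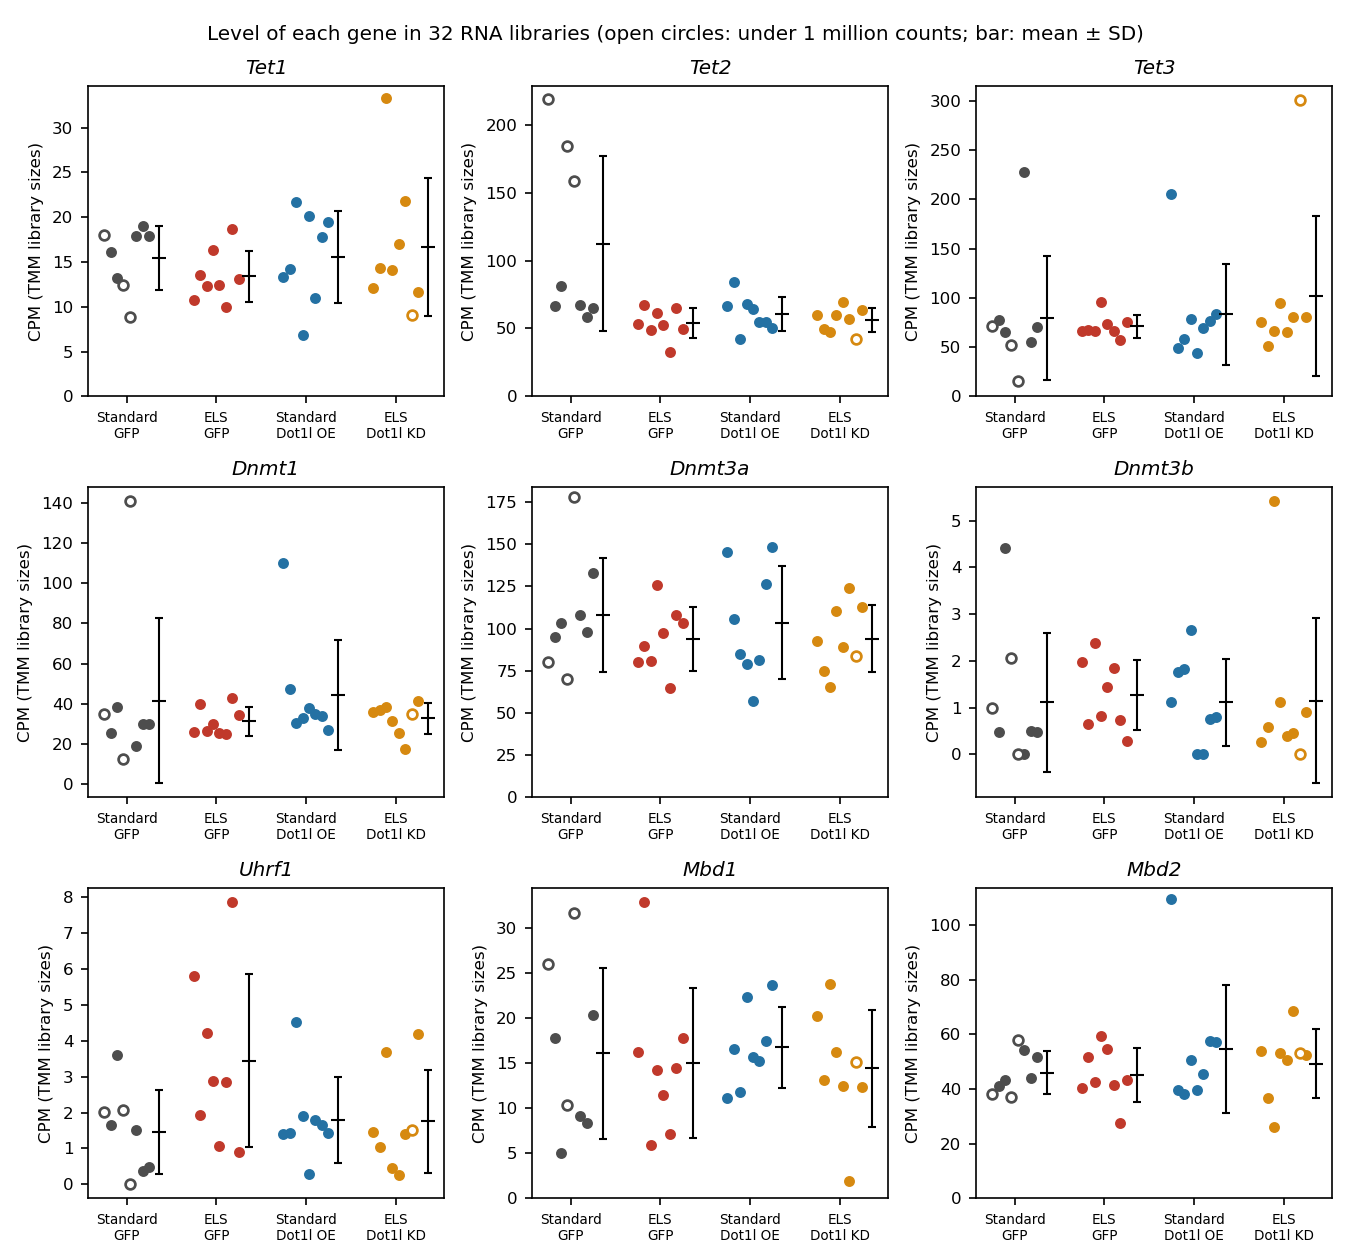
Level of each member in CPM, 1 panel per gene with its own vertical scale, for the 8 libraries of each group. Points are libraries, open circles mark libraries under 1 M counts, and the bars are means ± SD (n = 8). The Tet2 panel shows the 3 high Standard GFP libraries, and the Tet3, Dnmt1 and Mbd2 panels each show 1 to 3 single libraries far above their groups.

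Among the writers, Dnmt3a, which adds methylation in mature neurons as well as in development, did not differ past the threshold in any contrast. Its medians were 101 CPM in Standard GFP, 93.5 in ELS GFP, 95.3 with overexpression and 90.9 under the knockdown label, with ranges of 70.4 to 178, 64.8 to 126, 57.2 to 148 and 65.4 to 124 CPM. All 4 groups overlapped. The log2 fold changes were -0.20 for ELS, -0.06 for overexpression and 0.005 for knockdown (SE 0.20 each), and the 95% intervals were -0.61 to 0.21, -0.47 to 0.35 and -0.40 to 0.41.

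Dnmt1, the maintenance methyltransferase, had medians of 30.1, 28.3, 34.3 and 35.4 CPM in Standard GFP, ELS GFP, overexpression and knockdown. Replicate 5 of Standard GFP reached 141 CPM and replicate 1 of overexpression 110 CPM, against next highest values of 38.6 and 47.5. The overexpression contrast had 7 of 8 libraries above the Standard GFP median but a log2 fold change of 0.14 (SE 0.33, edgeR adjusted p = 0.94). Without libraries under 1 M counts, and so without that Standard GFP replicate, it was 0.63 (edgeR adjusted p = 0.492). The ELS log2 fold change, -0.37 (SE 0.33, edgeR adjusted p = 0.749), was 0.12 without those libraries, on the other side of 0.

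Dnmt3b and Uhrf1 had the fewest counts of the 9. Dnmt3b summed to 33 counts over the 8 Standard GFP libraries, 67 in ELS GFP, 56 with overexpression and 71 under the knockdown label, and was at 0 in 2, 0, 2 and 1 of them. Its medians were 0.48, 1.14, 0.96 and 0.53 CPM, and its standard errors on the log2 scale of 0.74 to 0.78 leave wide intervals, -1.40 to 1.73 for ELS. Uhrf1 summed to 38, 171, 85 and 95 counts. Its ELS GFP values ran from 0.89 to 7.87 CPM with a median of 2.87, above the Standard GFP range of 0 to 3.62 (median 1.59) in 3 of 8 libraries. That difference, a log2 fold change of 1.21 (SE 0.61, 95% interval -0.03 to 2.45), and the knockdown difference from ELS GFP, -0.95 (SE 0.57), did not pass (edgeR adjusted p = 0.439 and 0.929). Uhrf1 is known mainly from dividing cells. Proliferation markers summed to 14.1 to 51.7 CPM (median 36.8) in Standard GFP and 35.4 to 68.3 (median 44.5) in ELS GFP, and of the 8 listed genes up to 4 were at 0 in a library. Of the 5 tested, 4 were above 0 in the ELS contrast, at a median log2 fold change of 0.35. By edgeR or DESeq2 0 were called, with 1 at an unadjusted p under 0.05 by edgeR. Without the libraries under 1 M counts, 6 of these markers were tested. All 6 were above 0, at a median of 0.71, with 0 called and 0 at an unadjusted p under 0.05 by edgeR. Their part in the Uhrf1 values was not tested.

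The readers Mbd1 and Mbd2 showed no difference past the threshold. Mbd2 had medians of 43.6, 43, 48.2 and 52.7 CPM in Standard GFP, ELS GFP, overexpression and knockdown, with intervals of -0.46 to 0.41, -0.19 to 0.68 and -0.30 to 0.56 for the log2 fold changes of the 3 contrasts. Replicate 1 of overexpression stood at 109 CPM, next to 57.5 for the second highest. That library was also the highest of its group in Tet3 and Dnmt1, and its low TMM scaling factor of 0.53 raises all its CPM. Mbd1 had medians of 14.1, 14.3, 16.2 and 14.2 CPM in the same order and ranged from 1.87 to 32.9 CPM over all libraries, with log2 fold changes of -0.07, 0.11 and -0.03 (SE 0.37 to 0.38).

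Counted as a group, 7 members were below 0 and 2 above in the ELS contrast, beside 51.2% of all genes below 0 and 48.8% above. The split was 4 and 5 for overexpression and 3 and 6 for knockdown, beside 48.5% and 49.8% of all genes below 0 and 51.5% and 50.2% above. The members' median log2 fold changes were -0.18, 0.05 and 0.07, beside medians of -0.01, 0.02 and 0.002 over all genes. Of the 9, 0 were called in any contrast by edgeR, and 1, 1 and 0 had an unadjusted p under 0.05, that 1 being Tet2 both times. DESeq2 called 1 in the ELS contrast, Tet2. Without the libraries under 1 M counts the ELS split was 5 below and 4 above 0, with a median of -0.04. The 3 contrasts share control groups and are not independent.

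**Figure D3:**
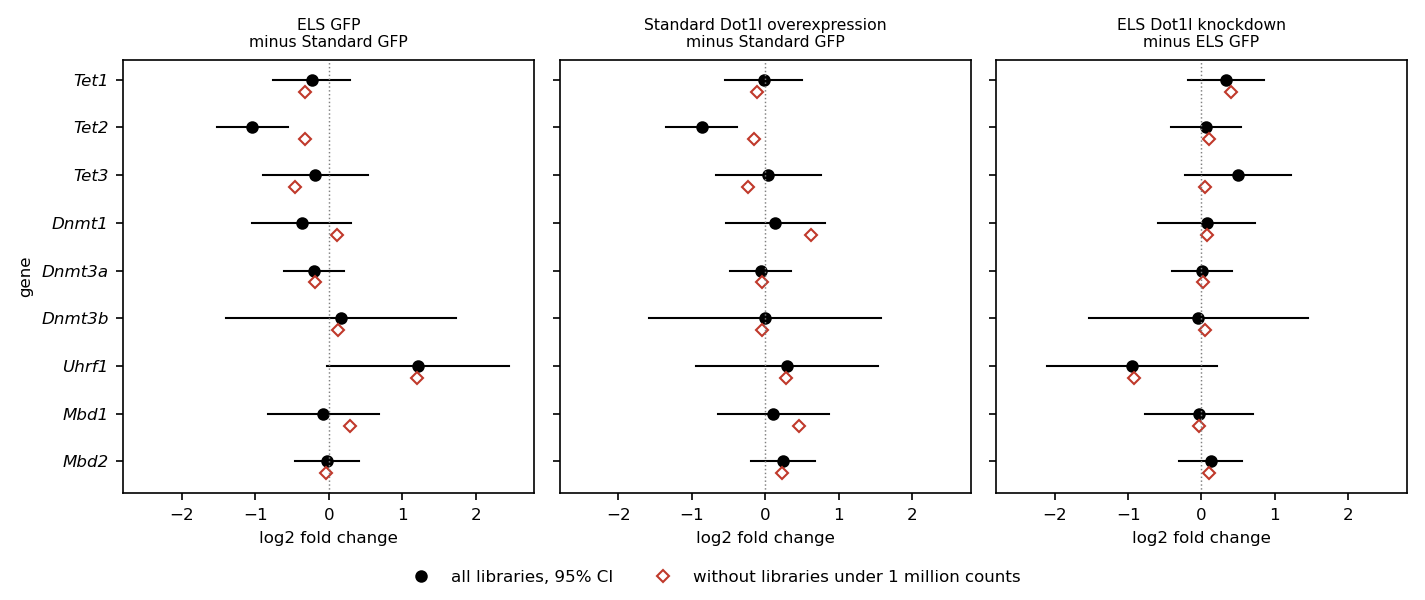
Log2 fold change of each member in the 3 contrasts (horizontal axis), with 95% intervals from the edgeR quasi-likelihood fit of 32 libraries. Open diamonds are the values without libraries under 1 M counts. Both Tet2 intervals against Standard GFP lie below 0, at -1.04 and -0.87, and the other intervals include 0.

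Other genes of DNA methylation were drawn from 5 lists of 63 genes: other writers and maintenance factors, demethylation and base excision repair, other readers, corepressor partners and methyl donor supply. Of these, 57 passed the filter, and 0 passed the adjusted threshold in any contrast or in the joint test by edgeR or DESeq2. At an unadjusted p under 0.05 there were 7, 5 and 3 in the ELS, overexpression and knockdown contrasts by edgeR, beside 11.7%, 10.9% and 6.18% of all genes. In the ELS contrast 27 were above 0 and 30 below, with a median of -0.05, and the splits were 32 to 25 (median 0.11) for overexpression and 35 to 22 (median 0.07) for knockdown, beside 48.8%, 51.5% and 50.2% of all genes above 0.

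In demethylation and repair, Tdg, the glycosylase that removes the oxidised bases TET enzymes make, averaged 17.9 ± 15 CPM in Standard GFP and 8.75 ± 1.31 in ELS GFP (SD, n = 8 each; log2 fold change -0.94, SE 0.37, edgeR adjusted p = 0.259). Polb, the repair polymerase that fills the gap, averaged 52.6 ± 27.4, 35.1 ± 7.38 and 30.9 ± 9.72 CPM in Standard GFP, ELS GFP and overexpression (SD, n = 8 each; edgeR adjusted p = 0.324 and 0.194). For both genes the SD was larger in Standard GFP than in the groups compared with it. Idh1, which makes the 2-oxoglutarate that TET enzymes need, averaged 21.4 ± 30.4 CPM with overexpression and 8.93 ± 2.96 in Standard GFP (SD, n = 8 each; edgeR adjusted p = 0.219), and 1 library held 56.2% of the summed overexpression level. Parp1, a strand break sensor, and Smug1, a uracil glycosylase, had the smallest p in the knockdown contrast, at log2 fold changes of 0.50 and -1.35 (edgeR adjusted p = 0.777 and 0.878).

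Among maintenance factors, Usp7, the deubiquitinase that stabilises DNMT1 and UHRF1, differed by 0.79 on the log2 scale in ELS GFP and by -0.58 under the knockdown label against ELS GFP, and 1 ELS GFP library held 43.9% of that group's summed level. Uhrf2, a paralog of Uhrf1, differed by -0.44, -0.32 and 0.23 in the ELS, overexpression and knockdown contrasts, and Cdca7l, a relative of the remodeller cofactor CDCA7, by 0.67 with overexpression. Binding of methylated DNA was not examined here for the genes listed as other readers. Of these, Zbtb33 (Kaiso) differed by -0.72 in ELS GFP and by 0.78 under the knockdown label. Zbtb38 differed by -0.36 in ELS GFP and -0.28 with overexpression, Mbd6 by 0.78 with overexpression and Mbd5 by -0.34 under the knockdown label. None of these values passed the threshold.

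Among corepressor partners, Gatad2a and Chd4, both NuRD subunits that act with MBD2, differed by -1.27 and -0.61 on the log2 scale in ELS GFP and by -1.30 and -0.59 with overexpression (edgeR adjusted p = 0.204, 0.282, 0.235 and 0.33). A single Standard GFP library held 67.9% of the summed Gatad2a level of its group. Atf7ip, an MBD1 partner, and the histone chaperone Rbbp7 differed by 0.54 and 0.53 in the knockdown contrast (edgeR adjusted p = 0.602 and 0.771). In methyl donor supply the smallest p belonged to Mat2b and Mat2a for ELS (0.21 and 0.28), Mtr and Ahcy for overexpression (-0.79 and 0.97) and Mtr and Mtrr for knockdown (-0.83 and 0.29), all log2 fold changes short of the threshold.

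Over the 32 libraries, the genes whose log2 CPM followed Dnmt3a most closely were Pbxip1 (Pearson r = 0.77) and Sv2c (0.74), those for Tet3 were Bod1l and Eef2k (0.78 each), and those for Tet2 were Ptrhd1 (0.72) and Atp6v1a (0.71). Between members the highest correlation was that of Dnmt3a with Mbd2 (0.63), then Dnmt3b with Uhrf1 (0.56), and the lowest were Uhrf1 with Mbd2 (-0.36) and Tet2 with Tet3 (-0.35). These points share libraries, depth and groups, and the values are descriptions.

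H3K79me2 peaks lay at 7 members in both lists, and at neither Dnmt3b nor Uhrf1 in either, beside 51.9% of genes tested with a peak in both. The members without peaks are those with the fewest RNA counts. Of the genes tested with a mean under 3 CPM, a limit chosen after the values were seen, 23.9% had a peak in either list, and of those at or above it 65.2%. With 1 list per group there is no replicate and no test, and the folds are the authors'. The lists differ throughout: 117819 distinct Standard peaks covered 126 Mb and 106374 ELS peaks 92.6 Mb, at median widths of 512 and 478 bp and median folds of 1.96 and 1.92.

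Of the erasers, Tet3 was covered over most of its length. It had 33 Standard peaks over 74.3 kb and 42 ELS peaks over 66 kb, which covered 83.1% and 73.6% of its longest annotated transcript. Lengths in kb are full peak widths, also past a transcript's ends, whereas percentages count the part within it. Tet2 had 19 Standard peaks over 42.4 kb (52.6% of the transcript) and 25 ELS peaks over 37.3 kb (46.2%). The widest Tet2 peak of the Standard list lay at chr3:133530073-133538515 on mm10, in the gene body, 8442 bp long with a fold of 3.10, and 3 ELS peaks covered 95.1% of it. In Tet2, coverage began 0.961 kb after the start site of the CpG-rich window printed above in the Standard list and 0.986 kb after it in the ELS list, and left the window itself free. Tet1 had 22 peaks over 23.6 kb and 26 over 16.7 kb, and the first lay 23.2 kb past the start site of its RefSeq window in both lists. Both lists class that first peak as promoter within 3 kb, so their annotation places it near another start site. By median width the Tet1 peaks were shorter than those of Tet2 and Tet3 in both lists, and they covered 25% and 17.7% of the transcript. In the Standard list they lay from 35 to 74.1 kb past the start of the longest annotated transcript, with none before.

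At the writers, Dnmt3a had 41 Standard peaks over 64.2 kb and 48 ELS peaks over 47.5 kb, 59% and 44.2% of its transcript. Its widest Standard peak, chr12:3816687-3823459, was 6772 bp long with a fold of 3.10, and 2 ELS peaks covered 95.2% of it. The Dnmt3a window printed above overlapped a Standard peak and no ELS peak, at a limit of 1 bp. The next window, chr12:3806910-3807209, overlapped a peak of both lists only near its end. In both lists that peak began 0.038 kb past the start site, and the window ends 50 bases past it. Of all windows, 5.59% overlapped a Standard peak and 3.77% an ELS peak. Dnmt1 had 2 Standard peaks over 9.33 kb and 4 ELS peaks over 8.49 kb. Its chr9:20942909-20951657 peak of the Standard list, 8748 bp long with a fold of 2.76, was the longest at any member, and 3 ELS peaks covered 91% of it. The first Dnmt1 peak began 0.109 kb past the start site of the window printed above in the Standard list and 0.147 kb past it in the ELS list.

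At the readers, Mbd2 had 30 Standard peaks over 30.5 kb and 28 ELS peaks over 21.4 kb. Mbd1 had 2 peaks in each list, over 1.95 and 2.42 kb, and was the 1 member with more covered length in ELS. Their highest folds were 2.86 and 2.85 for Mbd2 and 2.54 and 2.27 for Mbd1 in the Standard and ELS lists.

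**Figure D4:**
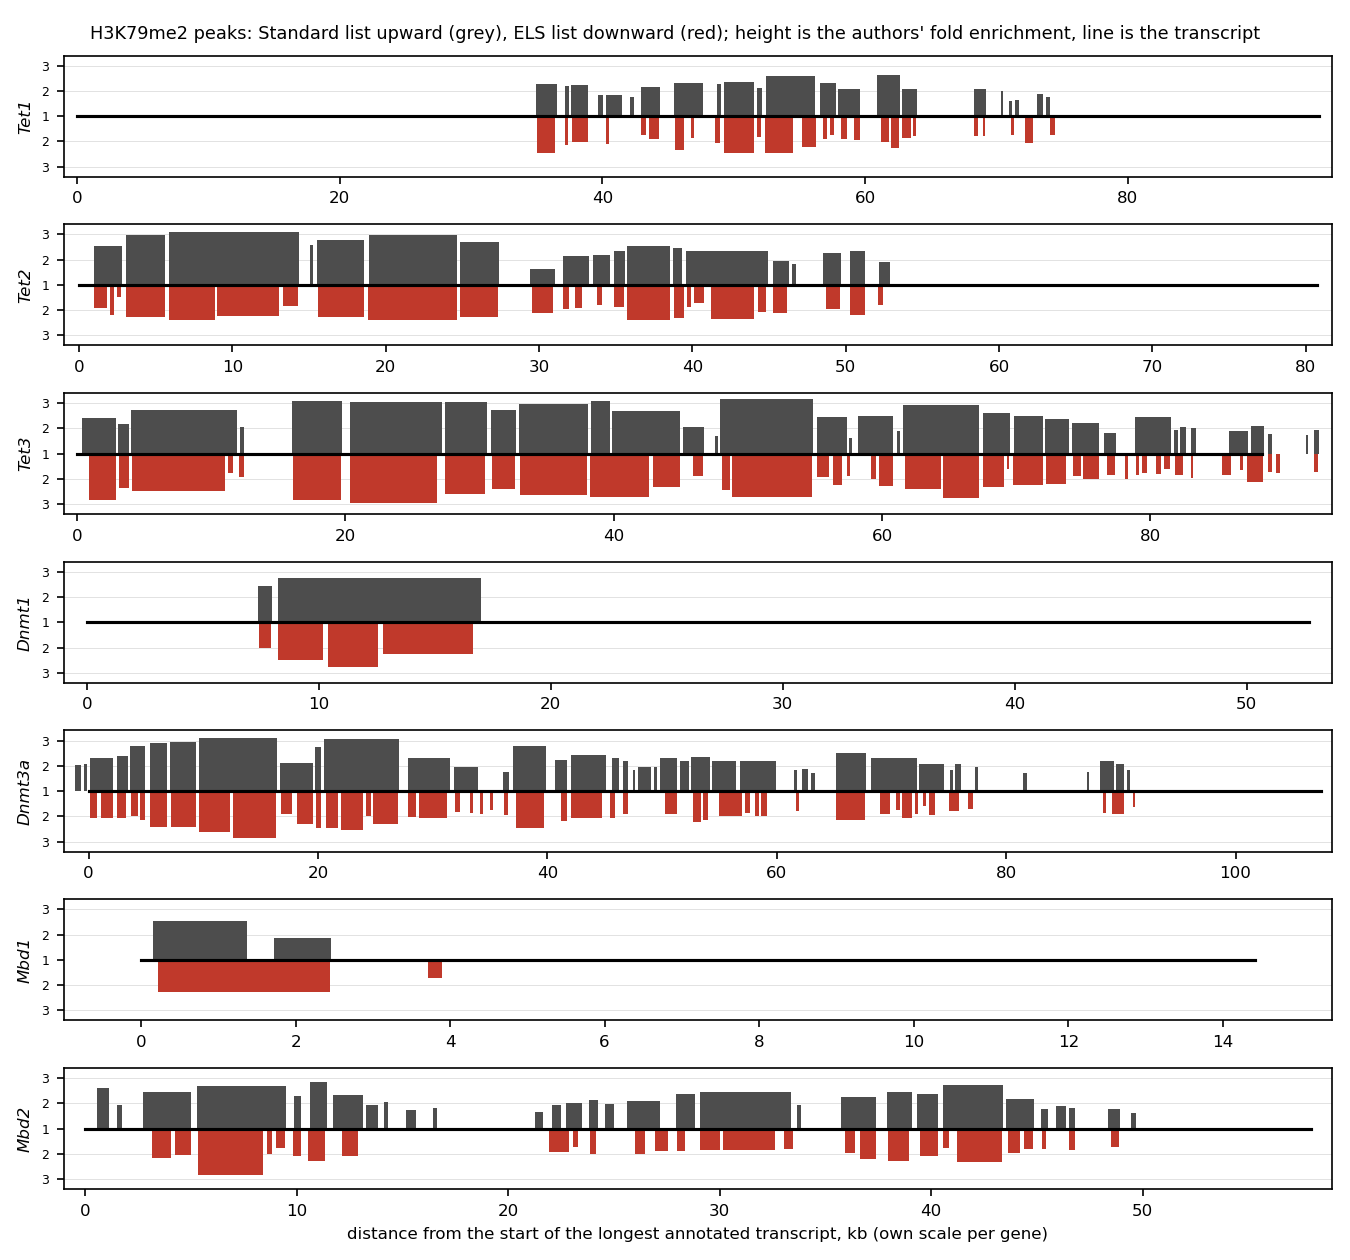
H3K79me2 peaks along the 7 members that have any, with distance from the start of the longest annotated transcript in kb (horizontal axis, own scale per gene). Grey blocks above the line are Standard peaks and red blocks below it are ELS peaks, and block height is the authors' fold enrichment counted from 1. Some long Standard blocks, such as the 8442 bp block of Tet2, face 2 or more ELS blocks. Others, such as the 5775 bp block of Tet2, face a single ELS block.

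Covered length was shorter in the ELS list at 6 of these 7 members, as at 91.5% of the 10879 genes with peaks in both lists. The ratio of ELS to Standard length was 0.708 at Tet1, 0.878 at Tet2, 0.889 at Tet3, 0.909 at Dnmt1, 0.741 at Dnmt3a, 0.701 at Mbd2 and 1.24 at Mbd1, beside a median of 0.732 over all those genes. The ratio was lower than that of Tet2, Tet3, Dnmt1 and Mbd1 in 79.1%, 80.7%, 83.7% and 95.8% of genes, and lower than that of Tet1, Dnmt3a and Mbd2 in 45.6%, 51.5% and 44.3%. The length-weighted mean fold was 2.63 and 2.23 at Tet2, 2.71 and 2.49 at Tet3, 2.74 and 2.43 at Dnmt1 and 2.48 and 2.22 at Dnmt3a in the Standard and ELS lists, each on its own list's scale.

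**Figure D5:**
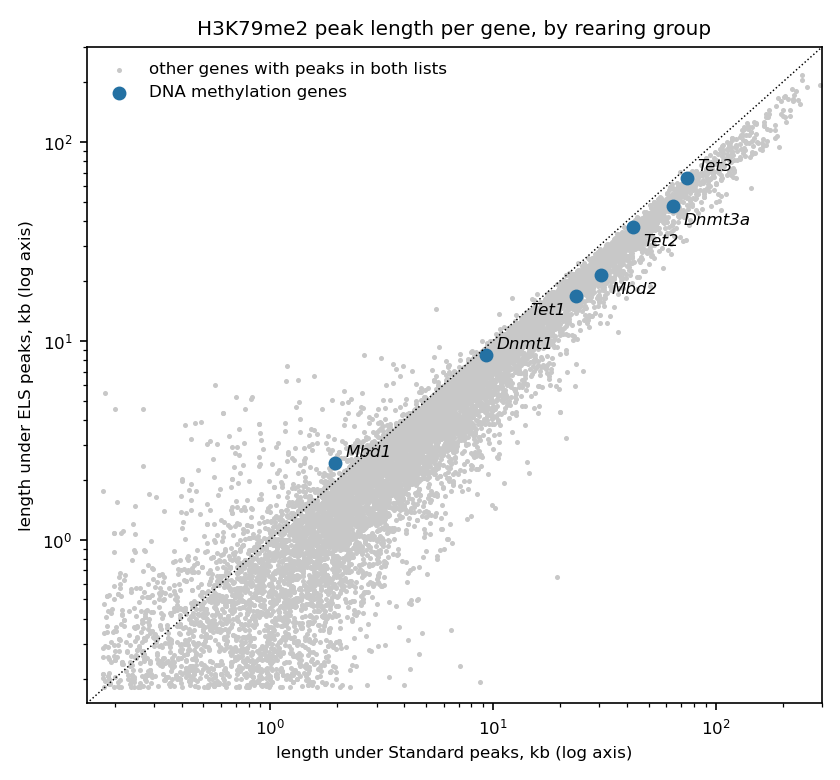
Length covered by H3K79me2 peaks per gene in the Standard list (horizontal axis, kb, log scale) and in the ELS list (vertical axis, kb, log scale), with grey points for genes that have peaks in both lists and labelled points for the 7 members. The members lie below the dotted line of equal length, except Mbd1, whose ratio is 1.24.

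More peaks over a shorter length held at 5 of 7 members (Tet1, Tet2, Tet3, Dnmt1 and Dnmt3a), beside 27.4% of genes with peaks in both lists. More ELS than Standard peaks as such held at those same 5, beside 31.1%. Neither share was matched for the number or width of a gene's peaks. Of the 149 Standard peaks at members, 43 overlapped 2 or more ELS peaks, and of the 175 ELS peaks, 9 overlapped 2 or more Standard peaks, where the shares over the lists were 16.2% and 5.07%. Long peaks meet more peaks of another list, and the mean Standard width was 2234 bp at Tet2, 2252 at Tet3 and 4666 at Dnmt1, beside 1070 over the list. Nearly all of the ELS length lay within Standard peaks, 99.4% at Tet2, 96.8% at Tet3, 100% at Dnmt1, 94.9% at Dnmt3a, 95.3% at Mbd2 and 90.9% at Tet1, with Mbd1 at 77.5%. At an overlap of at least 1 bp, 116 of the 149 Standard peaks and 167 of the 175 ELS peaks met a peak of the other list, beside 62.6% and 90.8% of all peaks.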

How the data were processed

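RNA was sequenced in 32 libraries and H3K79me2 peaks were deposited as 1 list per rearing group. The authors deposited raw counts per Ensembl gene, with no normalization. The submitters' processing notes name HISAT2, featureCounts, DESeq2 and FastQC, and mm10, with no roles or versions. The deposited table's own name speaks of HTSeq, so the tool that counted is uncertain, and the use of strand in counting is not stated. Reads of Dnmt3a and Dnmt3aos, Tet3 and B230319C09Rik, Tet1 and Gm51805, and Mbd2 and Gm31671, which overlap, may therefore be mixed. Per the file headers, each peak has a q-value and a fold enrichment, which is a ratio. No source used here gives the peak caller, the background or the pooling.

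Genes were filtered with filterByExpr, which left 14016, scaled by TMM and fitted in edgeR 4.0.16 under R 4.3.3. The robust quasi-likelihood test used 1 model of group means over the 32 libraries (28 residual degrees of freedom), with Benjamini-Hochberg adjustment over all genes and a threshold of 0.05. An SE is the absolute log2 fold change over the square root of F. CPM use TMM library sizes. They are not scaled by gene length, so levels are compared between groups, not between genes. Nothing in the labels says that libraries of a group came from separate animals, so p-values measure the spread between these libraries. No 2 libraries held identical counts. The test was checked on data simulated with changes in ELS GFP. It called 19 of 100 genes changed by 1 on the log2 scale and 64 of 100 changed by 2. It also called 1 unchanged gene. A gene short of the threshold may therefore still differ. Alternatives used DESeq2 1.42.0 and limma 3.58.1. Peaks were reduced to distinct peaks, joined by gene name, and compared with Python 3.11.15 and pandas 2.3.3, and coordinates are as the lists give them. Peaks called per library were not analysed here.

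The members and all lists were chosen with earlier results of these data known. All members and Dot1l are named, and per list the 2 genes with the smallest p in each contrast. Likeness was searched for the 3 members with the highest mean CPM.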

Additional observations from a re-analysis of the deposited data

Results flagged for a closer look

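Single libraries stood apart in 10 of the 36 gene-and-group sets of 8 values, where the gap to the nearest other library was a larger part of the whole range than Dixon's critical value at 95%. Chance flags about 1 in 20 such sets where values are normally distributed, which CPM at these depths and low counts need not be. Tet3 reached 228 CPM in Standard GFP replicate 6, 206 in overexpression replicate 1 and 301 in knockdown replicate 7. Dnmt1 reached 141 CPM in Standard GFP replicate 5 and 110 in overexpression replicate 1. Mbd2 reached 109 CPM in overexpression replicate 1, the third member for which this library stood apart. That library's TMM factor, 0.53, was the lowest of the 32 libraries, and the next lowest was 0.565 in Standard GFP replicate 6. A low factor raises every CPM of a library, and its part in these gaps was not tested. Dnmt3b reached 4.42 CPM in Standard GFP replicate 3 and 5.42 in knockdown replicate 3, and Uhrf1 4.52 in overexpression replicate 3, all from low counts. Mbd1 reached 32.9 CPM in ELS GFP replicate 2. The Tet2 values of Standard GFP were not among these sets, since 3 libraries were high together.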

How the results depend on the processing

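The joint call of Tet2 held under 4 alternatives, at an adjusted p of 0.00364 by DESeq2, 0.0231 with DESeq2 size factors in edgeR, 0.0315 with no filter on low counts and 0.0288 without the 10 most abundant features. It was lost with limma voom quality weights (0.549), with the number in the library title as a replicate block (0.881) and without libraries under 1 M counts (0.834). It ranged from 0.0144 to 0.112 when 1 library was left out. The cause of the losses was not tested beyond the library values given above, and the title numbers 1 to 4 are not said to mark a shared animal or batch. Under that block 0 genes were called in the joint test, as with limma voom, and 901 with no filter, against 178. Leaving out 1 library gave 20 (without Standard GFP replicate 6) to 278 (without Standard GFP replicate 7) called genes, with 65 without ELS GFP replicate 2, 88 without overexpression replicate 1 and 112 without knockdown replicate 7. DESeq2 called 88 genes for ELS, 42 for overexpression and 2 for knockdown, and edgeR without libraries under 1 M counts 7 for ELS and 18 for overexpression, where the edgeR fit of all libraries called 0.

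Of 186 member differences under alternatives other than leaving out 1 library, 22 took the other sign and 1 was called, Tet2 for ELS by DESeq2. These log2 fold changes took the other sign. With DESeq2 size factors in edgeR they were 0.00207 for Dnmt3b (overexpression) and -0.0207 for Dnmt3a (knockdown). By DESeq2 the same pair gave 0.00118 and -0.0209. With no filter they were 0.0141 for Dnmt3b (overexpression) and 0.000533 for Mbd2 (ELS). With limma voom they were 0.0435 for Tet3, 0.0383 for Dnmt1 and 0.0202 for Mbd2 (ELS), -0.0274 for Tet3 (overexpression) and 0.116 for Mbd1 (knockdown). With the replicate block they were 0.00200 for Tet3 and 0.0256 for Mbd2 (ELS), 0.0374 for Dnmt3b (overexpression), and -0.00547 for Dnmt1, -0.0422 for Dnmt3a and 0.00897 for Mbd1 (knockdown). Without libraries under 1 M counts they were 0.119 for Dnmt1 and 0.284 for Mbd1 (ELS), -0.233 for Tet3 (overexpression) and 0.0420 for Dnmt3b (knockdown). Without the 10 most abundant features Dnmt3a (knockdown) was -0.00341. Dnmt3b has no value there, since it then failed the filter, nor a joint adjusted p by DESeq2.

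Of 432 values with 1 library left out, 58 took the other sign and 0 were called. For ELS the ranges were -0.480 to 0.164 for Dnmt1, -0.0434 to 1.31 for Dnmt3b, -0.310 to 0.109 for Mbd1, -0.0941 to 0.0607 for Mbd2 and -0.325 to 0.262 for Tet3. For overexpression they were -0.167 to 0.672 for Dnmt1, -0.152 to 0.0678 for Dnmt3a, -0.342 to 1.14 for Dnmt3b, -0.0377 to 0.293 for Mbd1, -0.0993 to 0.0973 for Tet1, -0.301 to 0.493 for Tet3 and -0.0524 to 0.756 for Uhrf1. For knockdown they were -0.0674 to 0.0772 for Dnmt3a, -1.11 to 0.135 for Dnmt3b, -0.187 to 0.210 for Mbd1 and -0.0215 to 0.117 for Tet2.

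With a reciprocal overlap of 50%, 69 Standard and 69 ELS peaks at members met a peak of the other list, in place of 116 and 167. At or above the common median fold of 1.94, 105 ELS peaks at members remained of 175, of which 100 met a Standard peak. Every annotation of a peak to a member was to a promoter or gene body. A limit to these could therefore change no count and tests nothing. Depth limits Dnmt3b and Uhrf1 most, with 33 and 38 counts over the 8 Standard GFP libraries.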
